A study of Mus musculus with 24 samples.

Results

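The granules of neutrophils are filled in order as the cell matures, and 32 genes of that programme were followed in bone marrow and liver of bled mice. They were chosen by name from the gene names of the array, and all 32 of 32 names were found, on 40 probes, among 36994 gene names on 56605 probes. The names were picked with earlier results of these data known, and no threshold on a measured value was part of the rule. The set runs from proteases of the first granules (Elane, Mpo, Prtn3, Ctsg) to genes of nearly finished neutrophils (Mmp8, Mmp9, Cxcr2, Retnlg), and these 4 early and 4 late genes were set against each other.

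Every mouse was a male Erfe-/- animal, so the control mice carried the deletion too and there was no wild-type group. Erfe encodes erythroferrone, the hormone of erythroblasts that lowers hepcidin. The controls were taken at 0 h and the other mice at 24 h or 48 h after phlebotomy by puncture behind the eye, with 4 mice per time, and liver and marrow were each put on 1 single-colour Agilent array per sample. That gives 6 groups of 4 arrays and 24 arrays in all. Age, strain background and bled volume are not given in the sources used here.

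Neutrophils are made in the marrow from granulocyte-monocyte progenitors. At the promyelocyte stage they transcribe the proteases and the peroxidase of the primary granules; later, under C/EBP epsilon, they switch to lactoferrin and other proteins of the secondary granules, then to gelatinase, and last to receptors such as Cxcr2 that go with release into blood. Mature neutrophils leave the marrow for the blood and reach the liver through its sinusoids.

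Promoters of 2 early and 2 late genes are shown because letters recognised by the factors of this lineage differ between them. The 250 bases before the start site were taken from RefSeq on GRCm38.p6, all on the + strand. They are Elane (chr10:79886062-79886311), Prtn3 (chr10:79879417-79879666), Mmp8 (chr9:7558179-7558428) and Retnlg (chr16:48872358-48872607). Capitals mark matches, on either strand, to GAGGAA of PU.1 and TTGCNNAA of the C/EBP family; TGTGGT of RUNX factors was searched too, and none of the 3 motifs overlapped another in these stretches.
Elane: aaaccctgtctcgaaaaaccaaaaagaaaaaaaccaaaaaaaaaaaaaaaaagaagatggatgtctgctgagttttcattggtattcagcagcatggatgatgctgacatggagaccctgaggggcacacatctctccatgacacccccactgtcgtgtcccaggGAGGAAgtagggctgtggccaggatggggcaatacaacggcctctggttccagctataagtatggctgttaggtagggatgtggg
Prtn3: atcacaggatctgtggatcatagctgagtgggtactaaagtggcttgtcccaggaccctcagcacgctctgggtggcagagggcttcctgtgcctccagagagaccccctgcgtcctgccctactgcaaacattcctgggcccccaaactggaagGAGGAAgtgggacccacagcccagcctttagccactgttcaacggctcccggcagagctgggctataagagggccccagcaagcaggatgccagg
Mmp8: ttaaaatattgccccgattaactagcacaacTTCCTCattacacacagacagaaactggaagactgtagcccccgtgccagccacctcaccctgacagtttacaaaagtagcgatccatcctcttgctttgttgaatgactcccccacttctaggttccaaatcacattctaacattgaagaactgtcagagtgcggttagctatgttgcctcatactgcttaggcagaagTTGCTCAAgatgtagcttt
Retnlg: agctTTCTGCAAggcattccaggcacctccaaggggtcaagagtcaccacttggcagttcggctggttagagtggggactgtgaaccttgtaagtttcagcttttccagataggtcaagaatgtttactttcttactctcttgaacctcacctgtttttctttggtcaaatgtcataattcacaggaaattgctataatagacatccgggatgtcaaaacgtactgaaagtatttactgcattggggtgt

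Elane and Prtn3, neighbours on chromosome 10, each hold 1 PU.1 match, beginning 85 and 95 bases before the start site. All 4 early genes hold a PU.1 match and 0 hold a C/EBP match. Of the 3 late genes with an entry (Mmp9 has none), Mmp8 and Retnlg hold a C/EBP match, and Mmp8 and Cxcr2 a PU.1 match. Over the members, 30 genes matched 32 promoter entries. The PU.1 letters stand in 20 of these (62.5%), against 23.3% of all 32851 promoters of the same length. The C/EBP letters stand in 9 (28.1% against 9.56%) and the RUNX letters in 6 (18.8% against 14.0%). These matches are letters only and no binding was measured.

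Levels below are log2 intensity minus the array's 75th percentile. A level is thus relative to its own array and probe, and levels of different probes are not set against each other. That percentile was 488 to 668 intensity units in marrow and 250 to 326 in liver, and 28013 to 35700 probes per array were well above background. Erfe probe A_55_P2156022 was above background on 0 of 24 arrays, and A_51_P121179 on 1 of 12 marrow and 0 of 12 liver arrays. Without a wild-type array, these readings cannot check the genotype label. On marrow 24 h replicate 2 the summed signal of the 7 measured of 12 hepatocyte markers was 10.82, against 1.48 to 2.97 on the other marrow arrays, and the marrow results at 24 h that it moves are also given without it. Liver 0 h replicate 4 was the highest control for 9 of the 18 members measured on all livers, Mpo and Camp among them, and lay below other controls for Prtn3 and Il1b. Liver 0 h replicate 2 was the lowest control for 12 of 18, and the liver results that these livers move are given without each. The defining markers of each tissue were present: the summed hepatocyte markers lay at 13.44 to 13.76 in liver, and the erythroid markers at 9.15 to 9.93 in marrow. In bulk RNA, fewer cells of a type and less RNA per cell cannot be told apart.

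In marrow, all 32 members passed the filter on dim probes and 0 of 32 passed the test at 24 h or 48 h. At 24 h, limma with Benjamini-Hochberg adjustment over 21391 genes called 0 members, against 0.916% of all genes, and 0 members had an unadjusted p under 0.05. The members' differences from 0 h ran from -0.15 to 0.30 on the log2 scale with a median of -0.02, the same as the median of all genes, and 13 were positive. The array's median as the scaling point gave 20 positive and a median of 0.04, so the balance of signs at 24 h has no fixed direction. Without marrow 24 h replicate 2, the array with hepatocyte transcripts, 26 were positive and the median was 0.10, and without marrow 24 h replicate 3 only 3 were positive and it was -0.13. Without replicate 2, single members ran from -0.07 (S100a8) to 0.37 (Stfa1) and none was called. At 48 h limma again called 0 members, against 1.12% of all genes. There, 28 of 32 differences were negative, with a median of -0.22 and a range of -0.35 to 0.13, while the median of all genes was 0.00. The lowest adjusted p of a member was 0.457 at 24 h and 0.401 at 48 h, both for Csf3r.

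Between 48 h and 24 h limma called 0 members, against 0.00467% of all genes, with 28 of 32 differences negative and a median of -0.23. The 24 h and 48 h comparisons share the control arrays. The 4 arrays of a time lay wholly to one side of the other 4 for 1 member at 24 h (8.08% of all genes), 0 at 48 h (12.7%) and 0 between 48 h and 24 h (3.7%). The standard error of a member's difference had a median of 0.20, so that the 95% intervals of single members allowed differences between -1.11 (Il1b) and 0.77 (Stfa1) at 48 h. The median within-group SD of the members was 0.31, against 0.19 for all genes, and 29 of 32 members varied more between mice of a group than the median gene did.

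**Figure D1:**
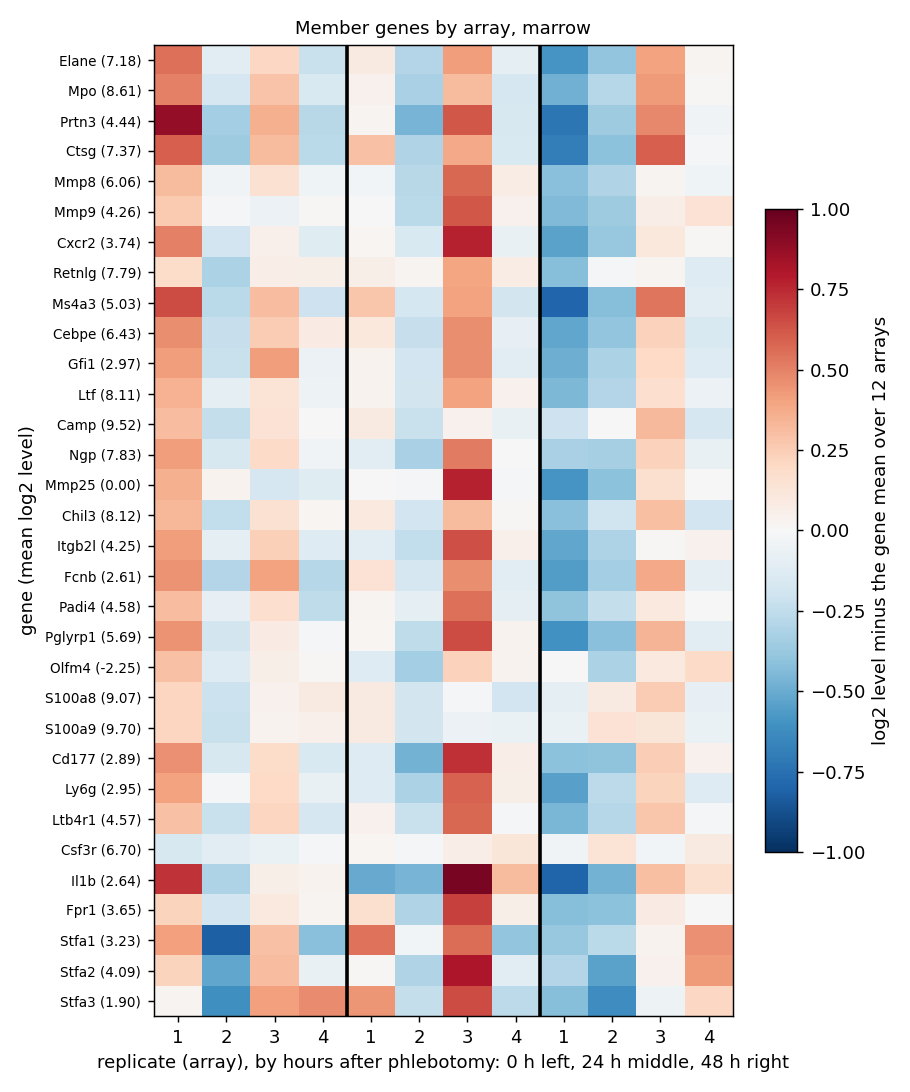
Heat map of the 32 members (rows, with the mean log2 level of each) on the 12 marrow arrays (columns, by hours after phlebotomy and replicate). Colour is the log2 level minus that gene's mean over the 12 arrays, and black lines part the 3 times; the column of 24 h replicate 3 is mostly red and that of 48 h replicate 1 mostly blue, but the rows of S100a8, S100a9 and Csf3r are nearly white on both.

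The early genes encode the enzymes of the primary granules. Elane, neutrophil elastase (probe at mm9 chr10:79350902-79350961), lay at 7.73, 7.07, 7.38 and 6.95 at 0 h, at 7.27, 6.88, 7.60 and 7.08 at 24 h and at 6.59, 6.79, 7.58 and 7.20 at 48 h. The groups overlap, and the spread was widest within the 48 h group. Mpo, myeloperoxidase (mm9 chr11:87617102-87617877), lay at 9.11, 8.44, 8.89 and 8.45, then at 8.65, 8.29, 8.93 and 8.44, then at 8.13, 8.32, 9.03 and 8.62. Replicate 3 was the highest of its group at both later times. Prtn3, proteinase 3 (mm9 chr10:79343869-79344685), lay at 5.32, 4.10, 4.80 and 4.16, at 4.47, 3.98, 5.06 and 4.28 and at 3.72, 4.09, 4.92 and 4.41. Ctsg, cathepsin G (mm9 chr14:56718795-56718854), lay at 7.97, 7.02, 7.69 and 7.11, at 7.67, 7.08, 7.76 and 7.22 and at 6.68, 6.96, 7.97 and 7.36. All 4 differences at 48 h were negative, from -0.31 (Prtn3, SE 0.33) to -0.20, and none passed the test (limma adjusted p 0.66 to 0.779). The 95% interval at 48 h was -0.77 to 0.28 for Elane and -1.03 to 0.41 for Prtn3.

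The late genes mark the last steps in marrow. Mmp8, the neutrophil collagenase (mm9 chr9:7567968-7568026), lay at 6.38, 6.03, 6.22 and 6.02 at 0 h, at 6.04, 5.79, 6.64 and 6.14 at 24 h and at 5.64, 5.76, 6.09 and 6.02 at 48 h. Mmp9, gelatinase B (mm9 chr2:164779091-164780300), lay at 4.52, 4.25, 4.21 and 4.27, at 4.27, 3.99, 4.88 and 4.30 and at 3.82, 3.90, 4.32 and 4.40. In both, replicate 3 at 24 h was the highest of 12, and replicate 1 at 48 h the lowest. Cxcr2, the chemokine receptor that draws neutrophils out of marrow (mm9 chr1:74206886-74206945), lay at 4.24, 3.54, 3.79 and 3.61, at 3.75, 3.58, 4.50 and 3.66 and at 3.20, 3.36, 3.84 and 3.75. Retnlg, resistin-like gamma (mm9 chr16:48874468-48874527), lay at 7.98, 7.48, 7.86 and 7.85, at 7.85, 7.82, 8.19 and 7.87 and at 7.37, 7.78, 7.82 and 7.67. The groups of both overlap at every time. At 48 h the differences of the 4 genes ran from -0.29 (Mmp8, SE 0.17) to -0.13 (Retnlg, SE 0.14), with limma adjusted p of 0.457 to 0.678, and at 24 h from -0.01 to 0.14.

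The rule of this gene set asks for early against late genes. Per array, the mean of the 4 early genes minus that of the 4 late genes averaged 1.50 ± 0.25 (SD, n = 4) in marrow of the controls. It averaged 1.34 ± 0.13 (SD, n = 4) in mice 24 h after bleeding and 1.48 ± 0.26 (SD, n = 4) in those at 48 h. Its zero depends on the probes, so only differences between times can be read, and no test was made because the genes were chosen with earlier results known. The differences from 0 h were -0.16 at 24 h and -0.02 at 48 h, both smaller than the SD at 0 h, and the former was -0.13 without marrow 24 h replicate 2. By array, the values were 1.75, 1.33, 1.67 and 1.23 at 0 h, 1.54, 1.26, 1.28 and 1.26 at 24 h and 1.27, 1.34, 1.86 and 1.44 at 48 h. The groups overlap, and the sign of the 48 h difference turned to 0.06 without marrow 0 h replicate 1.

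**Figure D2:**
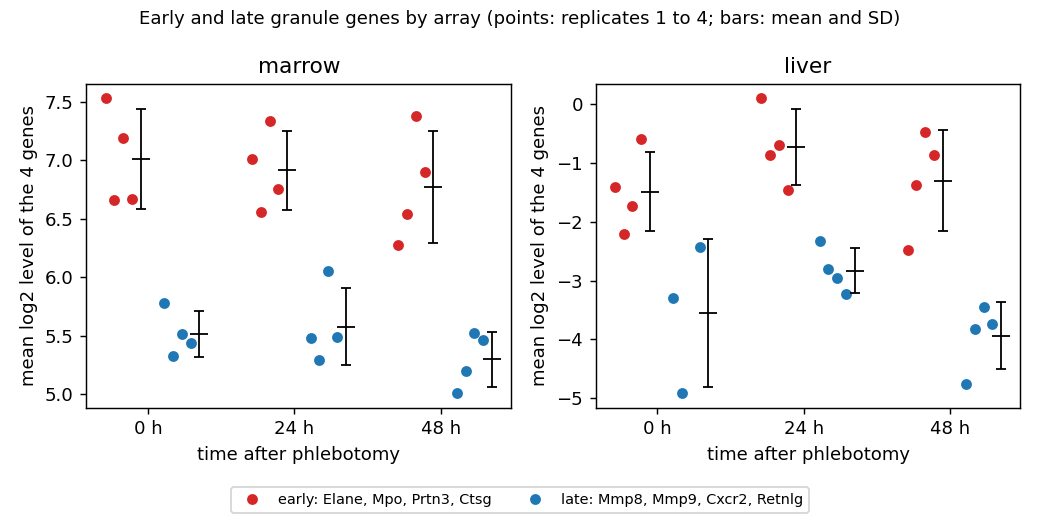
Mean log2 level of the 4 early genes (Elane, Mpo, Prtn3, Ctsg, red) and of the 4 late genes (Mmp8, Mmp9, Cxcr2, Retnlg, blue) on each array, in marrow (left) and liver (right) by hours after phlebotomy, with the mean and SD of each group in black. In marrow the early means of the 3 groups were 7.01, 6.92 and 6.77 and the late means 5.52, 5.58 and 5.30, with overlapping arrays; 1 liver array at 0 h has no late value because Retnlg was not measured on it.

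Transcription factors of the lineage did not pass the test either. Cebpe, C/EBP epsilon of the switch to secondary granules, lay at 6.90, 6.21, 6.69 and 6.52 at 0 h, at 6.54, 6.21, 6.90 and 6.35 at 24 h and at 5.91, 6.04, 6.67 and 6.28 at 48 h. Its 48 h difference of -0.35 (SE 0.20, limma adjusted p 0.434) was the most negative of the 32, and the groups overlap. Gfi1, a repressor needed for neutrophil differentiation, and Ms4a3, a membrane protein of granulocyte-monocyte progenitors, both differed by -0.32 at 48 h, and by -0.09 and -0.04 at 24 h.

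A further 10 members belong to the secondary and tertiary granules or are made with them, and 0 of these 10 were called at either time. Ltf, lactoferrin, lay at 8.46, 8.02, 8.24 and 8.06 at 0 h, at 8.14, 7.92, 8.52 and 8.15 at 24 h and at 7.66, 7.82, 8.28 and 8.05 at 48 h, a 48 h difference of -0.24 (SE 0.16). Mmp25, a membrane-bound metalloproteinase, lay at 0.35, 0.04, -0.17 and -0.12, at -0.01, -0.01, 0.76 and -0.02 and at -0.59, -0.41, 0.16 and -0.00. Replicate 3 was the highest of both later groups. The 10 differences at 48 h were all negative, from -0.30 (Itgb2l, an integrin beta chain) to -0.07 (Camp, the cathelicidin, and Olfm4, which marks a subset of neutrophils). Between these lie Ngp, the neutrophilic granule protein (-0.23), Chil3, the chitinase-like Ym1 (-0.19), Fcnb, ficolin B (-0.22), Padi4, which citrullinates histones (-0.17), and Pglyrp1, which binds peptidoglycan (-0.28). At 24 h 4 of the 10 were positive and 6 negative.

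The subunits of calprotectin, the calcium-binding protein of neutrophil cytosol, differed least from 0 h at 48 h. S100a9 lay at 9.92, 9.47, 9.73 and 9.75 at 0 h, at 9.79, 9.52, 9.64 and 9.63 at 24 h and at 9.63, 9.84, 9.82 and 9.63 at 48 h. Its differences were -0.07 and 0.01 (SE 0.10), with a 95% interval at 48 h of -0.22 to 0.24. S100a8 differed by -0.10 and 0.01 (SE 0.12). They and Stfa1 and Csf3r are the 4 members with a positive difference at 48 h.

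Among surface receptors, Csf3r, the receptor for G-CSF, was the only member whose arrays at 24 h all lay above the controls. It lay at 6.54, 6.58, 6.63 and 6.68 at 0 h, at 6.72, 6.68, 6.76 and 6.82 at 24 h and at 6.67, 6.83, 6.67 and 6.79 at 48 h. The lowest array at 24 h and the highest control lie just apart, both at 6.68 to 2 decimals. The 24 h difference was 0.14 (SE 0.07, unadjusted p 0.074, limma adjusted p 0.457), so it did not pass the test. Il1b, the cytokine, varied most between mice, at 3.36, 2.33, 2.69 and 2.67, at 2.13, 2.17, 3.58 and 2.95 and at 1.84, 2.17, 2.93 and 2.79. Replicate 3 at 24 h was again the highest of 12. Ly6g, the surface antigen used to sort neutrophils (-0.31), Fpr1, the formyl peptide receptor (-0.23), Cd177, a surface glycoprotein (-0.21), and Ltb4r1, the leukotriene B4 receptor (-0.15), had limma adjusted p of 0.506 to 0.765 at 48 h.

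The stefin A genes are inhibitors of cysteine proteases that stand in a cluster on chromosome 16 and are near copies in the mouse. The ends of their probes are shown for that reason. These are the last 30 bases of each probe, with the letters AATAAA in capitals; on mm9 the probes lie at chr16:36285398-36285457 (+), chr16:36404032-36404089 (-) and chr16:36450693-36450752 (-).
Stfa1: cagccatgAATAAAgaaatattcctcaact
Stfa2: gccatcAATAAAgaagcatttttgaaataa
Stfa3: caagactgatgagctgacctccatgtaagc

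The longest run of bases shared by the 60-base probes was 9 between Stfa1 and Stfa2 and 5 for the other pairs of these 3. Probes were not set against the transcripts of the other copies, so short runs cannot show that each probe reads 1 gene. The Stfa3 probe shares a run of 22 with that of Cstdc4, a neighbouring stefin gene, so those readings are uncertain between the copies. Stfa1 lay at 3.63, 2.41, 3.52 and 2.81 at 0 h, at 3.77, 3.20, 3.78 and 2.83 at 24 h and at 2.85, 2.96, 3.26 and 3.69 at 48 h. Its differences were 0.30 (SE 0.31) and 0.09, with overlapping groups and limma adjusted p of 0.738 and 0.91. Stfa2 differed by 0.12 and -0.08, and Stfa3 by 0.07 and -0.30.

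High and low values fell on the same arrays for most marrow members. At 0 h replicate 1 was the highest of its group for 29 of 32 members, at 24 h replicate 3 for 28, and at 48 h replicate 3 for 24. Over all genes the same arrays were the highest for 34.8%, 30.7% and 35.6%. The lowest were 0 h replicate 2 for 24 members, 24 h replicate 2 for 26 and 48 h replicate 1 for 28, where all genes gave 36.6%, 56.9% and 30.1%. Over the 12 arrays, 24 h replicate 3 was the highest for 21 members and 48 h replicate 1 the lowest for 22. Replicates of a group have no order, and the numbers do not link mice between times.

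The members' differences were also taken within each slide. The 3 slides each held all 3 times, and within a slide the median difference at 24 h was -0.07, -0.43 and 0.35 on slides 1, 2 and 3. At 48 h it was -0.56, -0.22 and 0.11, so the sign did not hold on slide 3, where 18 of 32 members were positive. Each of these rests on 1 or 2 arrays per time, so slide and mouse cannot be told apart. With the slide as a block, limma called 0 members at either time and gave medians of -0.04 and -0.24. Of the 8 further probes of members, 7 had a negative difference at 48 h, as did the probes used, and the second Gfi1 probe was above background on 0 arrays.

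Markers of other marrow cells were read on the same arrays. The summed signal of the 12 erythroid markers lay at 9.18 to 9.62 at 0 h, 9.15 to 9.59 at 24 h and 9.57 to 9.93 at 48 h, with Tfrc called higher at both later times and Rhag at 48 h. That of the 10 B cell markers lay at 6.01 to 6.76, 5.46 to 6.07 and 5.54 to 6.40, and that of the 10 T and NK cell markers at 5.12 to 5.49, 4.75 to 5.21 and 4.69 to 5.34, with Cd3d and Cd8a called lower at 24 h. Without marrow 24 h replicate 2, Cd8a and Tfrc were still called at 24 h and Cd3d was not (-0.51, limma adjusted p 0.0602). All 10 B cell differences were negative at 24 h. An unadjusted limma p under 0.05 was reached there by 8 of 10 B cell, 5 of 10 T and NK cell and 5 of 12 erythroid markers. The 10 monocyte and macrophage markers lay at 8.59 to 8.94, 8.45 to 8.94 and 8.21 to 8.86. The 6 measured of 7 Kupffer cell markers lay at 4.19 to 4.77, 3.69 to 4.18 and 3.32 to 4.24, with Cd5l called lower at 48 h. Their sum at 24 h thus lay wholly below that at 0 h, where 8.08% of all genes had separated groups. The 10 eosinophil, basophil and mast cell markers lay at 8.15 to 8.95, 8.40 to 8.85 and 8.32 to 8.57, with Mcpt8 and Ms4a2 called lower at 48 h. The part of these in the negative differences at 48 h was not tested.

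**Figure D3:**
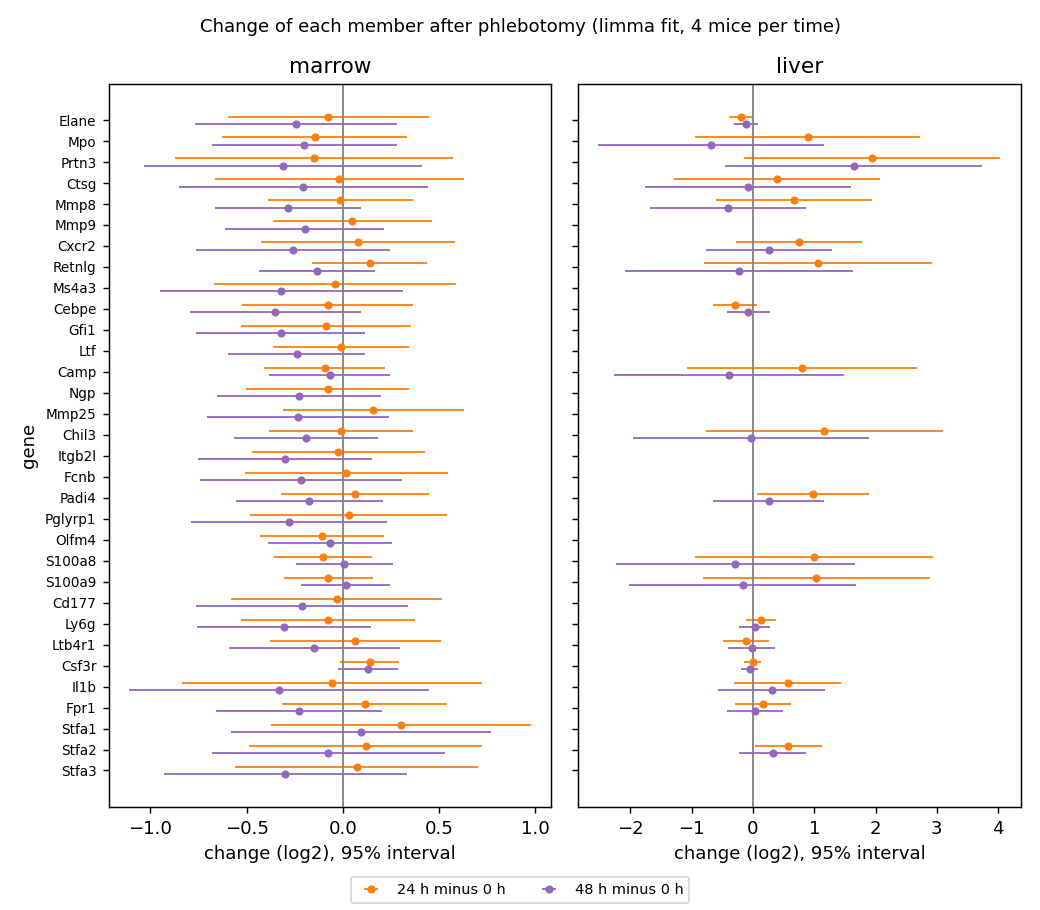
Fitted difference from 0 h on the log2 scale for each member, with its 95% interval, in marrow and liver at 24 h and 48 h. At 48 h in marrow 28 of 32 points lie below 0; liver intervals are wider, and 0 members pass the adjusted threshold in any of the 4 comparisons.

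Of the other genes of the neutrophil programme, 0 were called in each list in marrow at both times. Of 6 subunits of the NADPH oxidase, which makes superoxide, 2 differences were positive at 24 h and 0 at 48 h, with Rac2 at -0.33 (SE 0.17) and Cybb at -0.32 at 48 h. The list of further receptors and adhesion molecules also held Hdc, which encodes an enzyme. Of its 23 tested genes, 7 were positive at 24 h and 0 at 48 h, with a 48 h median of -0.27. The most negative at 48 h were Hdc (-0.41) and Tlr2 (-0.37). Among 20 further granule and cytosol proteins, 11 and 3 were positive, and the largest was Prg4 at 24 h (1.24, SE 0.60, limma adjusted p 0.432), which was 0.54 without marrow 24 h replicate 2. Among 12 other myeloid transcription factors, 3 and 2 were positive, and Gfi1b, the factor of erythroid and megakaryocyte cells, stood at 0.52 (SE 0.13, limma adjusted p 0.081) at 48 h. Of 5 measured neutrophil ligands none was positive at either time, and Cxcl12, which holds neutrophils in marrow, differed by -0.36 (SE 0.14) and -0.43 (SE 0.14) with limma adjusted p of 0.33 and 0.166. The 6 eicosanoid enzymes ran from -0.34 to 0.17 at 48 h.

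In liver, 19 of 32 members passed the filter, and 0 of 19 passed the test. The others were not well above background on all arrays of any group: Mmp9, Ms4a3, Gfi1, Ltf, Ngp, Mmp25, Itgb2l, Fcnb, Pglyrp1, Olfm4, Cd177, Stfa1 and Stfa3. Since a member passed if it was bright in 1 group, the counts that follow only describe those that passed. Mmp8, Cxcr2 and Padi4 passed through the 24 h group alone, so their 24 h differences are not free of the filter. Mpo, Prtn3, Retnlg, Chil3 and Stfa2 passed through the 24 h and 48 h groups but not through 0 h. Their differences from 0 h are not free of the filter either. At 24 h limma called 0 members, and 0% of all 19635 genes. The differences of 15 of 19 members were positive, with a median of 0.67 where all genes had -0.03, and the largest was 1.94 (Prtn3, SE 0.96, limma adjusted p 0.474). At 48 h limma called 0 members (0% of all genes), with 7 positive and a median of -0.05, and between 48 h and 24 h it called 0 (0% of all genes), with 3 positive and a median of -0.47. Unadjusted p under 0.05 was reached by 3, 0 and 0 members.

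Markers of other cells were read on the same livers. The summed signal of the 7 measured of 10 B cell markers lay at 1.65 to 1.80 at 0 h, 1.92 to 2.41 at 24 h and 1.72 to 1.85 at 48 h, with Cd79a among those not measured. That of the 6 measured of 8 megakaryocyte markers lay at 1.63 to 2.25, 2.37 to 2.75 and 2.29 to 2.64, with Itga2b not measured. Both sums at 24 h thus lay wholly above those at 0 h, where 5.49% of all genes had separated groups. Monocyte and macrophage markers overlapped, at 8.20 to 8.60 and then 8.41 to 8.48. The sums of Kupffer, T and NK, erythroid, progenitor and hepatocyte markers overlapped between 0 h and 24 h too. So did that of the 2 measured genes of the eosinophil, basophil and mast cell list. At 24 h an unadjusted p under 0.05 was reached by 5 of 7 B cell and 3 of 6 megakaryocyte markers. The same held for 4 of 8 erythroid and 2 of 8 T and NK cell markers. Of the erythroid differences 5 were positive and 3 negative. Each other list had at most 1 such marker, and limma called 0 of all these markers after adjustment. Their part in the members' differences at 24 h was not tested.

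The median of 0.67 at 24 h depended on single livers and on how the background was handled. It was 1.02 without liver 0 h replicate 4 and 0.40 without liver 0 h replicate 2. It was 0.14 with normexp background correction, 0.24 in the authors' deposited table and 0.16 for the 11 members that pass a filter requiring every array. Within slides it was 1.83, 0.60 and -0.34, the last on the slide that holds liver 0 h replicate 4. The other medians depended on single livers too. At 48 h the median turned to 0.26, with 16 of 19 positive, without liver 0 h replicate 4, and to 0.15 without liver 48 h replicate 1, and it was -0.13 without liver 0 h replicate 2. Between 48 h and 24 h it ran from -0.92 without liver 48 h replicate 3 to -0.09 without liver 48 h replicate 1, and it was -0.13 with the alternative that moved it most. The direction at 48 h is therefore not fixed. With the median gene's within-group SD at 0.18, that of these members was 0.74, and 16 of 19 lay above the median gene.

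The primary granule genes followed different orders over the livers. Mpo lay at -2.90, -3.12, -3.12 and 0.42 at 0 h, at 0.05, -1.28, -1.22 and -2.69 at 24 h and at -3.67, -3.64, -2.58 and -1.54 at 48 h. Replicate 4 alone was high at 0 h, and the groups overlap. Its 24 h difference of 0.89 (SE 0.84, limma adjusted p 0.713) was 1.76 without that liver and 0.44 without liver 24 h replicate 1. Prtn3 followed another order, at 0.54, -3.44, -1.33 and -2.88, at 1.08, 0.14, 0.21 and -0.78 and at -2.77, 0.90, 0.72 and 0.60. It was low on liver 0 h replicate 4, where Mpo was highest. Its 24 h difference of 1.94 ran from 1.39 without liver 0 h replicate 2 to 2.71 without liver 0 h replicate 1. Ctsg lay at -4.15, -3.12, -3.24 and -0.99, at -1.52, -2.87, -2.52 and -3.03 and at -4.17, -3.68, -0.84 and -3.15. Its 24 h difference of 0.39 ran from -0.04 without liver 0 h replicate 1 to 1.02 without liver 0 h replicate 4. Elane stayed between 0.51 and 1.03 on all 12 livers, with 0.85, 0.84, 0.72 and 1.03 at 0 h and 0.76, 0.51, 0.71 and 0.67 at 24 h. Its 24 h difference of -0.20 (SE 0.09) had an unadjusted p of 0.05 and a limma adjusted p of 0.448.

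Of the late genes in liver, Mmp8 lay at -3.10, -5.43, -4.03 and -2.05 at 0 h, at -2.24, -3.15, -2.94 and -3.60 at 24 h and at -4.20, -3.53, -4.22 and -4.30 at 48 h. At 0 h 2 of 4 arrays were above background, at 24 h all 4 and at 48 h 1. Retnlg lay at -2.42, -4.40 and -0.11 at 0 h on the 3 arrays that gave a value, at -0.90, -1.02, -1.31 and -1.80 at 24 h and at -3.64, -2.98, -1.72 and -1.80 at 48 h. Its 0 h group thus has 3 mice in the fit, and its 24 h difference of 1.06 ran from 0.01 without liver 0 h replicate 2 to 2.16 without liver 0 h replicate 4. That of Mmp8, 0.67, ran from 0.08 to 1.20 without the same livers. Cxcr2 differed by 0.75 (SE 0.47) at 24 h, or 0.57 to 1.05 without single livers, and by 0.27 at 48 h. Early minus late averaged 2.14 ± 0.49 in control livers (SD, n = 3), with 2.10 ± 0.30 in the 24 h livers and 2.63 ± 0.33 in the 48 h livers (SD, n = 4 each). The 48 h value was higher by 0.50 than at 0 h and by 0.54 than at 24 h. The former was 0.27 with normexp, 0.25 in the authors' deposited table and 0.31 over the genes tested in liver, and the latter 0.08, 0.09 and 0.38, and Mmp9, a late gene in that mean, was above background on 3 of 12 livers.

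Camp and Chil3 of the secondary granules and both calprotectin genes followed a like order over the livers. S100a9 lay at 2.84, 0.95, 1.50 and 4.89 at 0 h, at 4.51, 3.78, 3.68 and 2.33 at 24 h and at 0.91, 1.89, 3.16 and 3.55 at 48 h. Camp lay at -0.96, -1.58, -1.43 and 2.40, at 1.50, 0.64, 0.71 and -1.22 and at -1.59, -1.13, -0.71 and 0.30. Both were highest on liver 0 h replicate 4 and next on liver 24 h replicate 1, and their groups overlap. Their 24 h differences were 1.03 (SE 0.84) and 0.80 (SE 0.86). They were 1.81 and 1.73 without liver 0 h replicate 4, and 0.50 and 0.40 without liver 0 h replicate 2, and neither passed the test in these fits. S100a8 (1.0) and Chil3 (1.16) gave 1.83 and 2.08 without the former liver and 0.44 and 0.59 without the latter. Padi4 did not share this order, and lay at -3.18 on liver 0 h replicate 4.

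Ltf was not tested in liver, but it too was highest on liver 0 h replicate 4 and next on liver 24 h replicate 1. It was above background on liver 0 h replicate 4 only at that time, at 0.03, with -4.99, -5.25 and -5.86 on the other controls. At 24 h it lay at -0.45, -1.66, -1.97 and -3.97, with 3 of 4 above background, and at 48 h at -5.70, -4.74, -2.44 and -2.0, with 2 of 4. Ngp was above background on liver 0 h replicate 4 (-0.36), on 3 livers at 24 h and on 1 at 48 h. Set against each probe's own marrow mean at 0 h, liver 0 h replicate 4 held 0.35% for Ltf, 0.319% for Ngp, 0.317% for Mpo, 0.382% for Chil3, 0.418% for Retnlg, 0.692% for Camp, 1.92% for S100a8 and 3.52% for S100a9. On liver 0 h replicate 2, the lowest control for 12 of 18 members, S100a9 was at 0.23% and Camp at 0.0438%. Over the 18 members measured on all livers, liver 0 h replicate 4 was the highest of 12 for 8. Its marker sums lay within those of the other controls for erythroid cells (7.64 against 7.39 to 7.72), monocytes and macrophages, Kupffer cells, B cells, megakaryocytes and progenitors. They lay below for hepatocytes (13.48 against 13.50 to 13.72) and for T and NK cells (5.76 against 5.88 to 6.10). For Ear6 and Gzmb, the 2 measured of 10 genes in the eosinophil, basophil and mast cell list, they lay above, at -0.83 against -1.68 to -0.86. Epx, Prg2 and Mcpt8 were among those not measured, so this sum says little of these cells. The part of blood left in the tissue was not tested.

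**Figure D4:**
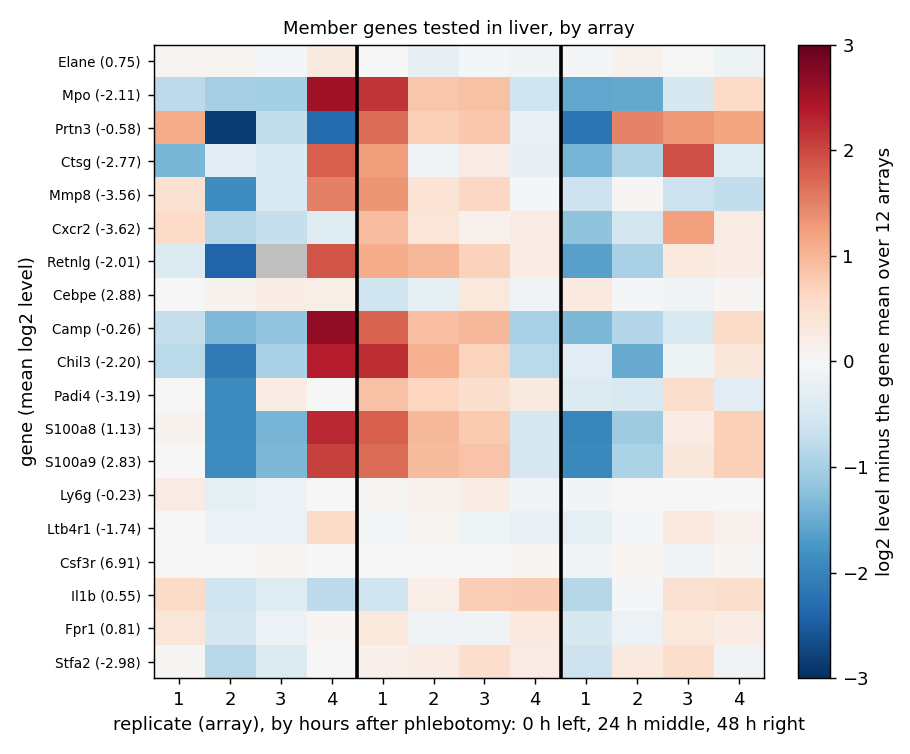
Heat map of the 19 members tested in liver (rows, with the mean log2 level of each) on the 12 liver arrays (columns, by hours after phlebotomy and replicate). Colour is the log2 level minus that gene's mean over the arrays and grey is a missing value; 0 h replicate 4 is deep red for Mpo (0.42) and Camp (2.40), while the rows of Elane and Csf3r are nearly white.

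Of the receptors and other members, Padi4 and Stfa2 had separated groups at 24 h in liver. Padi4 lay at -3.18, -5.10, -2.96 and -3.18 at 0 h and at -2.31, -2.55, -2.72 and -2.91 at 24 h, a difference of 0.98 (SE 0.42, unadjusted p 0.037, limma adjusted p 0.426) that was 0.48 without liver 0 h replicate 2. Stfa2 lay at -2.94, -3.81, -3.40 and -2.97 at 0 h and at -2.83, -2.77, -2.48 and -2.73 at 24 h, a difference of 0.58 (SE 0.25, unadjusted p 0.041, limma adjusted p 0.428). Groups were separated for these 2 of 19 members at 24 h (5.49% of all genes), for 0 at 48 h (4.31%) and for 0 between 48 h and 24 h (3.7%). Neither passed the test, and in both the lowest control was below background. Padi4 was above background on all 4 livers only at 24 h and entered the test through that group, so its separation is no support. Stfa2 was above background on all 4 livers at 24 h and 48 h but not at 0 h. It entered through the later groups, so its separation is no support either. Cebpe (-0.29), Ltb4r1 (-0.11), Ly6g (0.13), Fpr1 (0.16) and Il1b (0.57) differed at 24 h with limma adjusted p of 0.519 to 0.832.

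In the wider programme 0 genes of any list were called in liver. Lcn2, lipocalin 2, which liver also makes in inflammation, differed by 2.45 (SE 0.84, limma adjusted p 0.365) at 24 h and 0.49 at 48 h. These were 2.07 and 0.11 without liver 0 h replicate 4 and 1.87 and -0.09 without liver 0 h replicate 2. Slpi, an elastase inhibitor, differed by 0.69 at 24 h. Cxcl1, a ligand of Cxcr2, differed by 1.81 (SE 0.57, limma adjusted p 0.349) at 24 h and 1.46 (SE 0.57, limma adjusted p 0.732) at 48 h, or 1.51 and 1.15 without liver 0 h replicate 4. All 6 NADPH oxidase subunits were positive at 24 h, at 0.11 to 0.31, and 3 of 6 at 48 h, but Cybb and Rac2 were at -0.10 and -0.01 at 24 h without liver 0 h replicate 2.

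The difference from 0 h in marrow was also set against that in liver for the 19 members tested in both. The limit of the liver filter holds here too. At 24 h limma called 0 members, against 0.521% of 18231 genes, and at 48 h 0, against 0.543%. At 24 h 15 of 19 differences between tissues were negative, that is lower in marrow, with a median of -0.67, and at 48 h 12 were, with a median of -0.13. The 24 h median ran from -1.04 without liver 0 h replicate 4 to -0.33 without liver 0 h replicate 2, and was -0.15 with the alternative that moved it most. The 48 h median ran from -0.50 without liver 0 h replicate 4 to -0.02 without marrow 48 h replicate 1. Prtn3 had the most negative, -2.09 (SE 1.06, limma adjusted p 0.428) at 24 h, with a 95% interval of -4.29 to 0.11. Csf3r at 48 h had the only unadjusted p under 0.05, with 0.18 (SE 0.09) and a limma adjusted p of 0.395.

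At 0 h, marrow and liver differed for all 32 members in limma, against 80.3% of the 22771 genes tested, so a call alone says little here. Of these, 31 were higher in marrow. Only 11 members were above background on all 4 livers at 0 h, and over these the differences had a median of 6.30 on the log2 scale, from -0.32 (Csf3r) to 10.32 (Ctsg), with Elane at 6.42 and S100a9 at 7.17. For another 15 members only some livers measured the gene: 3 of 4 for Mpo (10.90, SE 0.65), Prtn3 (6.37), Chil3, Padi4 and Stfa2, 2 of 4 for Mmp8 (9.82), Cxcr2 (7.76), Ms4a3 and Pglyrp1, 2 of 3 for Retnlg, and 1 of 4 for Ltf (12.21, SE 0.99), Mmp9 (8.84), Ngp, Gfi1 and Itgb2l. These differences rest in part on signals near background and have no order among themselves. With each liver array raised to at least its lowest signal above background, the median over all 32 members was 7.21. For 6 members no liver array at 0 h was well above background, so marrow was at least 132-fold higher for Stfa1, 122-fold for Cd177, 99.5-fold for Fcnb, 69-fold for Stfa3, 15.8-fold for Mmp25 and 3.39-fold for Olfm4. These bounds set the marrow mean against the higher of the probe's signal and the lowest signal above background on each liver array.

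**Figure D5:**
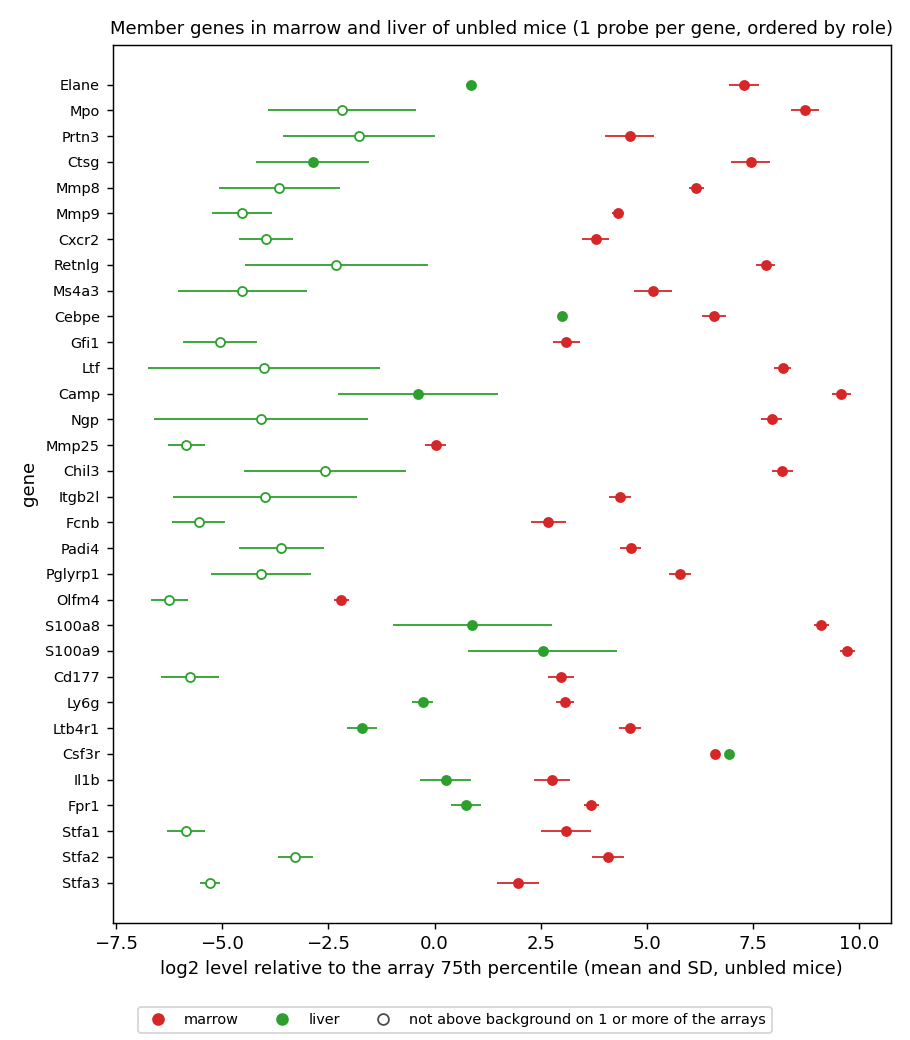
Log2 level of each member, ordered by role, in marrow (red) and liver (green) of the 4 control mice; points are means and bars SDs, and open points were not above background on 1 or more of the arrays. Marrow lies to the right of liver for every member except Csf3r, and each level is relative to its own probe.

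Csf3r was the exception: marrow minus liver was -0.32 (SE 0.06, limma adjusted p 6.9e-05), but it was 0.26 with quantile normalization (limma adjusted p 0.0118) and -0.13 with normexp (limma adjusted p 0.068), so its direction flips with the scaling. It lay at 6.91, 6.88, 7.0 and 6.90 in liver at 0 h and between 6.79 and 7.0 on all 12 livers. Its probe (mm9 chr4:125721478-125721537, + strand) is shown because part of it recurs elsewhere. These are bases 31 to 60, with a 16-base window in capitals.
Csf3r: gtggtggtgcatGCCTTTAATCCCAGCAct
That window stood in 4 other probes of the array and in 7 of 32851 promoters. The letters are those of the B1 family of short repeats, which stand in many mouse transcripts. Over the whole probe, 11 probes of other genes and 22 promoters shared at least 1 window of 16 bases, where no other member had more than 1 probe and 3 promoters. The part of other transcripts in the Csf3r signal was not tested, and its values are given with that limit in both tissues.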

How the data were processed

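RNA of liver and marrow was put on 24 single-colour arrays, and the titles of the samples gave their tissue and time. Trizol extraction and Cy3 dye were used, per the labels' protocols. Per the submitters' processing notes, Agilent Feature Extraction 10.10.1.1 and limma were used. The deposited scanner files hold spot intensity, from which the scanner software had already taken off the background, per the file headers. The deposited files also carry marks of the scanner software for outlier, saturated and well-above-background spots, and 0 spots were saturated. The authors' deposited table holds log2 values, filtered and normalised per tissue in a way not given in the sources used here. Its columns ranked probes as the scanner files did (lowest Spearman correlation 0.997), with medians of 8.31 in marrow and 7.74 in liver. It served as an alternative only. Per the file headers, probe positions are those of mm9.

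Control spots and outlier spots were left out, and the log2 processed intensity was centred on the 75th percentile of each array. A probe was tested in a tissue if all 4 arrays of some group read it well above background, and a gene was read from its brightest such probe. Differences were tested in R 4.3.3 with limma 3.58.1 (lmFit, eBayes, two-sided), with Benjamini-Hochberg adjustment over all genes tested and a threshold of 0.05, which was tried on simulated data. The 3 times of a tissue were fitted on 12 arrays, and tissues on 24 arrays. Symbols of the file or, through accession, of RefSeq were used. The number of arrays limits the precision. Figures were drawn with Python 3.11.15 and matplotlib 3.10.9.

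All 32 members may be named, and of the other lists the called genes or the 2 with the largest difference. The members and lists were chosen with earlier results of these data known. Alternatives covered scaling, background correction, the authors' table, the filter, probes per gene, slide, replicate number, variance model, array weights, the arrays fitted and leaving out each array. The early minus late score over tested genes only was added after seeing the data. The place of probes within their transcripts was not analysed here.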

Additional observations from a re-analysis of the deposited data

Results flagged for a closer look

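Among 157 sets of 4 values (members or the early minus late score in a group), 9 had a lone array far from the other 3, where chance marks about 1 in 20 sets. In marrow at 24 h, Retnlg lay at 8.19 on replicate 3 (others 7.82 to 7.87) and Mmp25 at 0.76 on the same array (others -0.02 to -0.01), and early minus late was 1.54 on replicate 1 (others 1.26 to 1.28).

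In liver at 0 h, replicate 4 carried Mpo at 0.42 (others -3.12 to -2.90) and Camp at 2.40 (others -1.58 to -0.96). On liver 0 h replicate 2, Padi4 lay at -5.10 (others -3.18 to -2.96). At 48 h, Prtn3 lay at -2.77 on replicate 1 (others 0.60 to 0.90), Mmp8 at -3.53 on replicate 2 (others -4.30 to -4.20) and Padi4 at -2.66 on replicate 3 (others -3.65 to -3.50).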

How the results depend on the processing

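In the time comparisons and the comparisons of changes between tissues, 0 members were called under each of 12 alternatives and without each single array. The lowest adjusted p of a member over these fits was 0.0746, in marrow at 48 h. The replicate block also gave 0 members in these 8 comparisons and 32 between tissues. Nothing in the labels ties a number to a mouse. Arrays with the same number had a mean correlation of deviations of 0.02 in marrow and 0.00 in liver. Marrow and liver of one time and number had 0.12 (0.01 to 0.20, 12 pairs), not over 0.1 in every pair. Other numbers had -0.04, but centring each group on its mean ties that value to the first, so it is no separate contrast. Whether marrow and liver came from the same mice was not tested. Leaving out single arrays moved the members' median in marrow at 48 h from -0.35 to -0.10 and in liver at 24 h from 0.40 to 1.02. Array weights raised the members with an unadjusted p under 0.05 in marrow at 48 h to 11. Calls over all genes ran from 60 to 811 in marrow at 24 h and from 94 to 1461 at 48 h.

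Between tissues at 0 h, the filter requiring every array left 11 members, all 11 called, and Csf3r turned to 0.26 with quantile normalization; the median of all genes was -0.05, and -0.23 with normexp and -0.47 without a filter. Early minus late in liver, 48 h minus 24 h, was 0.08 with normexp (0.077) and 0.09 in the authors' deposited table (0.086); the cause was not tested. Leaving out single arrays gave 0.43 to 0.66 there, 0.35 to 0.78 for 48 h minus 0 h and -0.19 to 0.24 for 24 h minus 0 h. In marrow these ranges were 0.01 to 0.21, -0.15 to 0.06 and -0.25 to -0.08. The filter requiring every array left no late gene in liver and so no score.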
